A study of Arabidopsis thaliana with 36 samples.

Results

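The gene set described here holds 84 Arabidopsis loci whose transcript level was higher after 2 h of auxin in CASP1::shy2-2/slr-1 roots and was not higher in roots of its parent, slr-1. It was chosen from measured values. With L the log2 of the mean counts per M reads (CPM, where M stands for 1000000) of the 3 libraries of a group plus 1, a locus belongs if L at 2 h exceeded L of the untreated control by at least 1.5 in CASP1::shy2-2/slr-1 and by at most 0.25 in slr-1. The set takes 84 of 32678 loci counted, 26496 of which had a read in any library, and all 84 are annotated as protein coding. The controls and the 2 h libraries therefore describe the set and were not tested, and tests were run only on the libraries at 4, 8, 16 and 24 h.

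RNA came from roots of Col-0 seedlings 7 days old, without the shoot and without about 3 mm of tip, and treated seedlings had been moved to 10 µM 1-naphthaleneacetic acid (NAA), a synthetic auxin. The 12 groups cross 2 genotypes with no treatment or 2, 4, 8, 16 or 24 h of NAA, and each holds 3 libraries. Each genotype has a single untreated group and none that was moved without NAA. Differences from the control therefore cannot be told apart as due to NAA, the move or the time of sampling. Every group, controls included, carries slr-1, a stabilised form of the repressor IAA14 that leaves seedlings without lateral roots, and the second genotype adds shy2-2, a stabilised form of IAA3, driven by the CASP1 promoter, which is active in differentiated endodermal cells.

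In the auxin pathway, Aux/IAA proteins such as IAA3 and IAA14 hold back auxin response factors until auxin causes their breakdown, and a stabilised form keeps the targets repressed. Members of the set described below have other roles. Some act in plant defence, in the synthesis of indole-derived defence compounds and of salicylic acid, and others are known from tissue short of sugar, where a kinase of the SnRK1 family switches metabolism to the breakdown of amino acids, sugars and cell wall. The design asks how auxin response in the differentiated endodermis bears on the rest of the root.

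Libraries held between 28.1 and 49 M reads in genes. At 2 h the second replicate of CASP1::shy2-2/slr-1 stood apart in these genes: over 64 of the 84 it was the lowest of the 3 libraries, against 35.1% of all loci, and over 18 it was the highest, against 45.4%. Its level relative to the mean of the other libraries had a median of 0.182 in the former and 2.3 in the latter, and of 1.02 over the 18262 loci with a mean of at least 1 CPM. Its library code is the only one that ends in x. All other 2 h libraries have codes ending in n, and no control has a suffix, so the suffix and the treatment cannot be told apart there. Without that library the rule takes 117 loci, which hold 78 of the 84, and without replicate 3 of the same group it takes 46, which hold 45 of the 84. The set depends on a control as well: without control replicate 2 of CASP1::shy2-2/slr-1 the rule takes 79 loci, which hold 68 of the 84. Summed markers of the root tip, cap and meristem (4 loci) were at most 0.813 CPM in every control, and those of the endodermis (10 loci) at 288 to 604 CPM. At 24 h the endodermis markers summed to 24.8 to 28.7 CPM in slr-1 and to 253 to 281 CPM in CASP1::shy2-2/slr-1. At 16 h the root tip markers reached 5.9 CPM in slr-1 and 8.58 CPM in CASP1::shy2-2/slr-1. Markers of shoot and photosynthesis (11 loci) summed to 177 to 287 CPM in slr-1 controls and 116 to 170 CPM in CASP1::shy2-2/slr-1 controls. At 2 h they summed to 81.1 to 93.2 and 88.4 to 95.3 CPM. The part of all these markers in the results was not tested. No listed tissue marker is a member. Reads of IAA3, IAA14 and CASP1 (means of 39.4, 5.62 and 29.4 CPM in slr-1 controls and of 45.2, 6.82 and 53.8 CPM in those of CASP1::shy2-2/slr-1) come from the native gene, the mutated allele and the transgene alike and do not check the labels. In such bulk sections, fewer cells of a type and less RNA per cell cannot be told apart.

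The controls of the genotypes are described first, with the caution that the rule used them and favours loci that are low in the CASP1::shy2-2/slr-1 controls. The 3 slr-1 controls lay above the 3 CASP1::shy2-2/slr-1 controls in 52 of 84 members, against 13.6% of all loci, and the median difference in L was -1.34 (CASP1::shy2-2/slr-1 minus slr-1). At 2 h the median was 1.41 in the other direction. In 63 members the 2 h mean of CASP1::shy2-2/slr-1 exceeded the slr-1 control mean, and in 21 it did not. Within CASP1::shy2-2/slr-1 the 3 libraries at 2 h lay above the 3 controls in 52 members (10.5% of all loci), and 31 members stood above all slr-1 libraries at 2 h (14.2%). In slr-1 the 2 h libraries lay below the controls in 24 (27.3%). The rule used these contrasts, so nothing is read from the counts.

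The difference between 2 h and control in CASP1::shy2-2/slr-1 had a median of 1.85 and ran from 1.51 to 4.83. It was at least 3 in 12 members and at least 2 in 35. In slr-1 the median was -0.42, from -4.09 to 0.21. There 26 members were lower by at least 1, 30 lay within 0.25 of the control and 28 in between. At the threshold, AT5G56100 at 1.51 and SIS and AOX1D at 1.51 were just inside, and PP2-A13, AT1G30720 and AT4G27450 at 1.49, 1.49 and 1.48 just outside. At the slr-1 ceiling AT2G05540, AT3G18250 and AT4G11170, at 0.21, 0.20 and 0.20, were just inside, and MYB122, MGL and AT1G05575, at 0.26, 0.26 and 0.27, just outside. Of the set, 23 members reached 100 CPM or more at 2 h and 16 stayed under 5 CPM. In CASP1::shy2-2/slr-1, 78 members had their highest group at 2 h, 2 at 4 h, 3 at 16 h and 1 at 24 h.

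**Figure D1:**
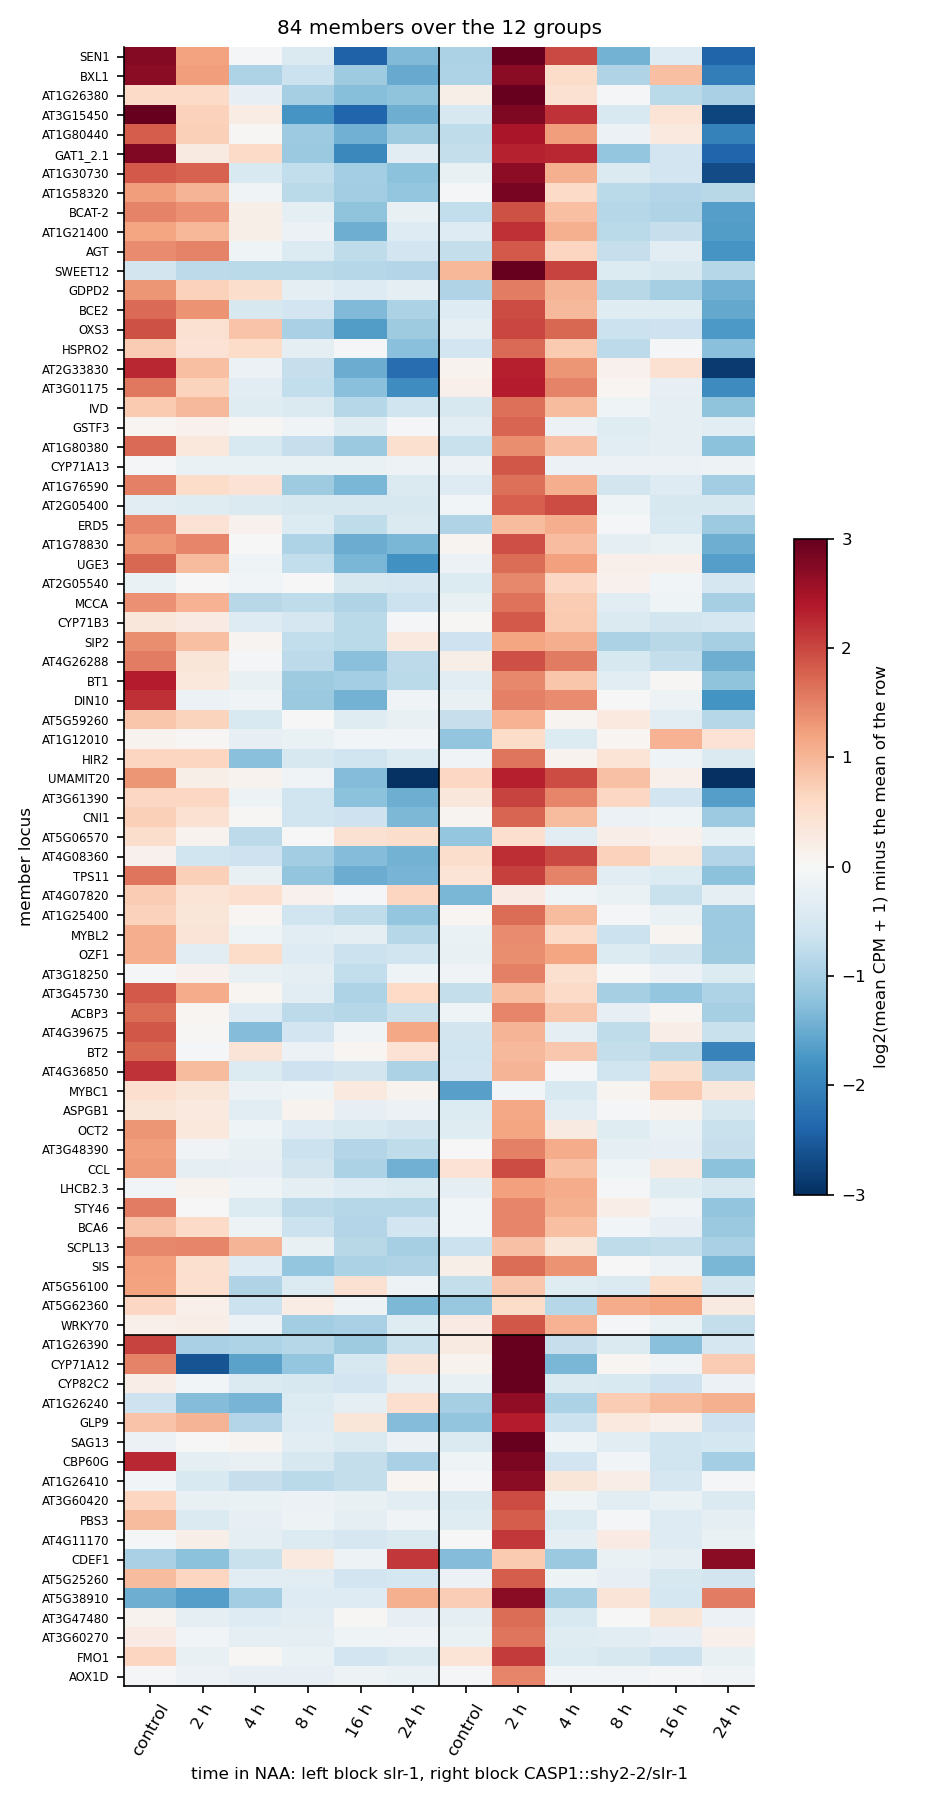
Heat map of the 84 members (rows) over the 12 groups (columns), as log2(mean CPM + 1) minus the mean of the row, with colours limited to 3 in either direction. Black lines part the genotypes and, from the top, the 64 members lowest in the x library at 2 h, the 2 in the middle and the 18 highest. The 2 h column of CASP1::shy2-2/slr-1 is the highest of that genotype in 78 rows, and the slr-1 control column is high in much of the upper block.

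Genes of indole-derived defence metabolism had some of the largest differences. Of 22 listed loci for indolic glucosinolates and camalexin, 3 are members: CYP71A12 and CYP71A13, cytochrome P450 enzymes that act on indole-3-acetaldoxime, and CYP82C2, a P450 that hydroxylates an indole carbonyl nitrile. Another enzyme of that branch, the oxidoreductase AT1G26380 (known as FOX1), is also a member. It is not counted in the list because its symbol there found no locus. Over the list, the median difference at 2 h was 0.24 in CASP1::shy2-2/slr-1 and 0.21 in slr-1, so the list as a whole did not separate the genotypes.

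CYP71A12 stood at 185, 459 and 207 CPM in the 3 libraries of CASP1::shy2-2/slr-1 at 2 h (284 ± 152, SD, n = 3) and at 2.77, 32.1 and 3.28 CPM in its controls. The slr-1 libraries gave 24.7, 28.9 and 50.9 CPM untreated and 1.54, 0.495 and 1.27 CPM at 2 h. All treated CASP1::shy2-2/slr-1 libraries were above all others of the 2 times, and the slr-1 libraries were below their own controls, so the genotypes moved apart from both sides: by 4.38 and by -4.09 in L. At 4 h the values were 6.84, 2.22 and 2.77 CPM, back among the controls.

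CYP82C2 held 18.3 ± 2.27 CPM (SD, n = 3) at 2 h in CASP1::shy2-2/slr-1, from 16.4 CPM in replicate 1 to 20.8 CPM in replicate 2. It was at most 1.43 CPM in every other library at the controls and 2 h, and its libraries at 2 h differed little from each other. CYP71A13 gave 3.78, 2.58 and 3.1 CPM at 2 h and no read in the slr-1 libraries at 2 h, where 3 reads in a library is the limit that such a count allows. CYP71A13 lies 2 annotated genes from CYP71A12 and is nearly identical to it, so reads may be split between them and its values are uncertain. It was too low at 4 to 24 h to be tested.

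The berberine bridge enzyme-like family, FAD-dependent enzymes of the cell wall and of defence metabolism, has 27 annotated loci, of which 24 had a read. A difference of at least 1.5 at 2 h was seen for 5 in CASP1::shy2-2/slr-1 and for 0 in slr-1, and 4 of those 5 are members: AT1G26380, AT1G26390, AT1G26410 and AT1G30730. The fifth, AT1G26420, was at 1.78 in CASP1::shy2-2/slr-1 and 0.97 in slr-1. AT1G26380 and AT1G26390 are neighbours on the minus strand of chromosome 1 (9126737 to 9131779, TAIR10.1), and AT1G26410 lies 1 gene further. Reads of such similar neighbours may be split by the counting.

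AT1G26390 had the largest difference of the set, 4.83 in L. It gave 79.3 and 77 CPM in replicates 1 and 3 of CASP1::shy2-2/slr-1 at 2 h and more in replicate 2 (mean 106 ± 48.9 CPM, SD, n = 3), against 1.21, 6 and 1.09 CPM in the controls. In slr-1 it gave 12.5, 15.7 and 7.02 CPM untreated and 0.798, 0.641 and 0.302 CPM at 2 h. As for CYP71A12, this group was the highest, and the level was down to 1.07, 0.987 and 0.691 CPM by 4 h. AT1G26380 differed in that slr-1 hardly differed between the times, at 1.92, 3.19 and 5.32 CPM untreated and 3.16, 3.47 and 3.81 CPM at 2 h, while CASP1::shy2-2/slr-1 went from 0.729, 5.61 and 0.787 to 47.6, 32.1 and 40.9 CPM.

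The upstream windows of AT1G26390, CYP71A12 and CYP82C2, the members with the largest differences among those above, are shown to let their sequence be compared. Each is the 250 bases before the annotated gene start in TAIR10.1 (RefSeq), written 5′ to 3′ in the direction of the gene. Capitals mark the W-box letters TTGACC or TTGACT, which WRKY factors are known to bind, and the TATA box letters TATAAA, on either strand. No capitalised stretch overlaps another. The windows are chr1:9131780-9132029, minus strand, chr2:13101372-13101621, minus strand, and chr4:15462100-15462349, plus strand.
AT1G26390: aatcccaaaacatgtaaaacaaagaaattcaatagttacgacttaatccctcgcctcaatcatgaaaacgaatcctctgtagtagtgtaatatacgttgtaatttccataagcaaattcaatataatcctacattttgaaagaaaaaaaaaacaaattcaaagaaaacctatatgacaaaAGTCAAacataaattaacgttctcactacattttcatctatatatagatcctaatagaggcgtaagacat
CYP71A12: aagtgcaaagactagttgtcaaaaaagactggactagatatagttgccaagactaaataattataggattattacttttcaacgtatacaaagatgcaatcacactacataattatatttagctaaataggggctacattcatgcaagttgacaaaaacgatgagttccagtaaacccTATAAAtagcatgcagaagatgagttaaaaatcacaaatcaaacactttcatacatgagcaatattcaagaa
CYP82C2: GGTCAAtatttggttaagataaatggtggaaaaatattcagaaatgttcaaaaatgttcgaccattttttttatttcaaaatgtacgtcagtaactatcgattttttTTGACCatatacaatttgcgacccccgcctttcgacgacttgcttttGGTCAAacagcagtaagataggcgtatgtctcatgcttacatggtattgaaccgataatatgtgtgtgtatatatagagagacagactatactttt

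CYP82C2 had 3 W-boxes, starting 250, 143 and 96 bases before the start. AT1G26390 had 1, starting 70 bases before it, and CYP71A12 had none of these letters in its window but a TATA box starting 72 bases before the start. W-boxes were in 32.1% of the members' windows and in 28.5% of 26711 windows of protein-coding genes, and TATA boxes in 45.2% and 47.7%. The auxin response element letters TGTCTC or TGTCGG were in 11.9% and 14.6%. Of the windows shown above, that of CYP82C2 holds these letters, left in lower case, and those of AT1G26390 and CYP71A12 do not. These are descriptions of letters and not sites.

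Salicylate and immunity genes have 5 members among 19 listed loci: CBP60G, PBS3, FMO1, SAG13 and WRKY70. CBP60G, a calmodulin-binding factor that activates salicylic acid synthesis, gave 16.6, 20.8 and 14.1 CPM at 2 h in CASP1::shy2-2/slr-1 and 0.201, 3.18 and 0.61 CPM in its controls. In slr-1 it gave 13.6, 12.6 and 7.79 CPM untreated and 1.21, 1.22 and 0.907 CPM at 2 h. The treated CASP1::shy2-2/slr-1 libraries thus lay just above the untreated slr-1 libraries, and the treated slr-1 libraries lay with the untreated CASP1::shy2-2/slr-1 libraries. PBS3, the enzyme that joins glutamate to isochorismate, was lower, with 2.22, 7.92 and 1.92 CPM against 0, 0.227 and 0.0762 CPM, and with 2.02, 2.26 and 0.995 CPM in the slr-1 controls, which the treated libraries overlap.

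SAG13, a senescence-associated short-chain dehydrogenase, was under 1 CPM in every control and slr-1 library at 2 h and gave 11.1, 22.2 and 5.44 CPM in CASP1::shy2-2/slr-1 at 2 h. FMO1, which makes the systemic signal N-hydroxypipecolic acid, gave 3.92, 13.5 and 3.42 CPM there. Its mean of 6.96 CPM leans on replicate 2. FMO1, PBS3, CDEF1, AOX1D, AT3G47480 and AT5G38910 are the 6 members lost when that library is left out. WRKY70, a factor between the salicylate and jasmonate pathways, was high in all 3 libraries at 20, 28.7 and 33.9 CPM against 8.52, 8.42 and 8.25 CPM. Over the 19 loci the median difference at 2 h was 0 in both genotypes, and the classical marker genes PR1, BGL2 and PR5 are not members.

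Other members that were highest in replicate 2 were GLP9 (71.5, 166 and 62.9 CPM at 2 h, 3.52, 15.5 and 4.14 CPM in controls), a germin-like cell wall protein, and AT1G26240, an extensin-like protein (19.4, 29.2 and 13.4 CPM against 0.377, 1.05 and 0.686 CPM). In slr-1, GLP9 stood at 35, 41 and 28.8 CPM untreated and 39.5, 37.3 and 40.5 CPM at 2 h, above the CASP1::shy2-2/slr-1 controls at both times. The 18 members of this kind were back near control by 4 h, when a median of -3.9% of the 2 h difference in L was left. All 18 had 2 h libraries above the controls without overlap (10.5% of all loci), and in all 18 the 2 h mean exceeded the slr-1 control mean. The rule and the split by replicate 2 used these values, so nothing is read from these counts. GSTF3, a glutathione transferase with a close paralog, was the only member among 34 detoxification loci, at 4.1, 1.83 and 4.73 CPM against 0, 0.124 and 0.127 CPM.

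**Figure D2:**
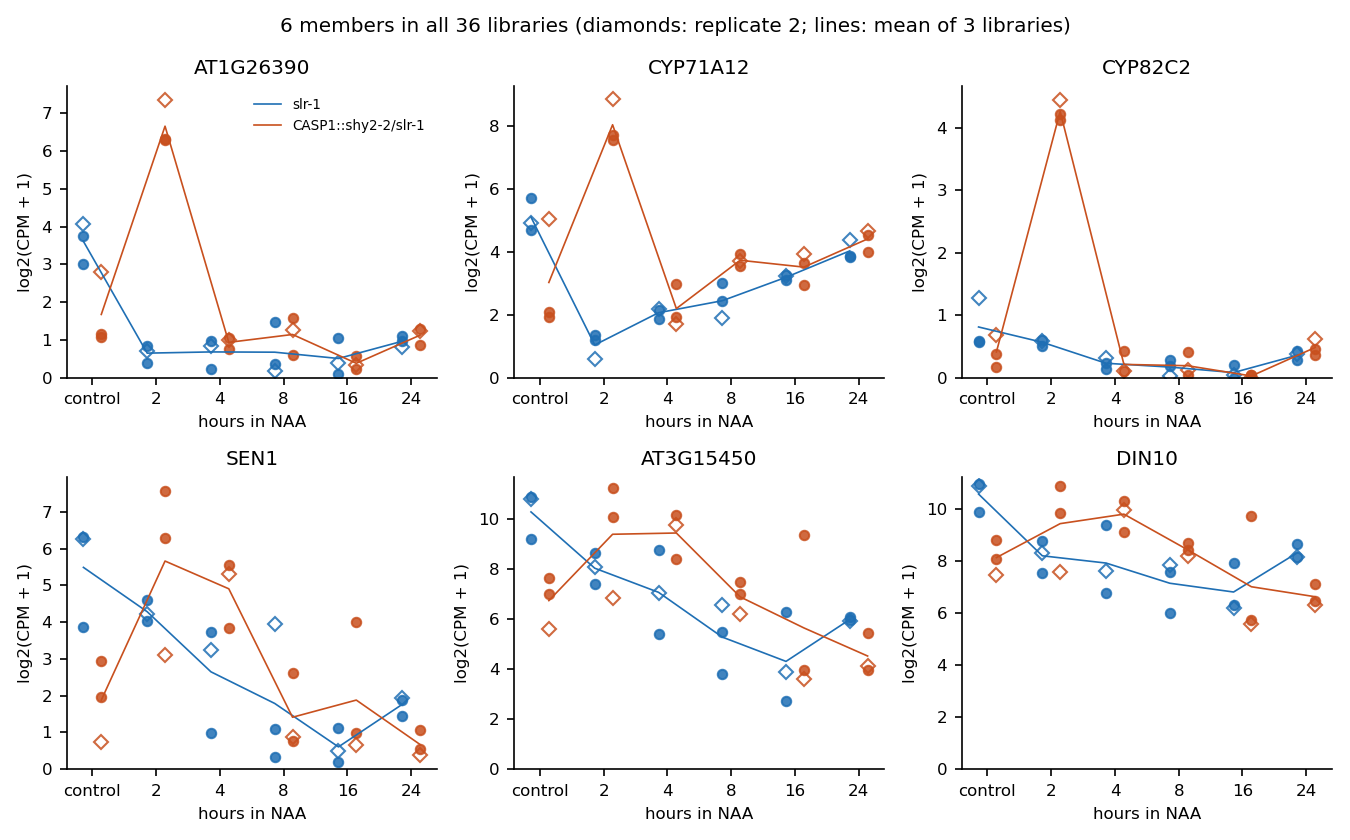
Log2(CPM + 1) of 6 members in all 36 libraries against hours in NAA, slr-1 in blue and CASP1::shy2-2/slr-1 in orange, diamonds for replicate 2 and lines through the mean of the 3 plotted values. In the upper row (AT1G26390, CYP71A12, CYP82C2) CASP1::shy2-2/slr-1 is high at 2 h alone and replicate 2 is its highest library. In the lower row (SEN1, AT3G15450, DIN10) the high values last to 4 h, slr-1 is highest untreated, and replicate 2 is the lowest library at 2 h.

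Other members are known from sugar-starved or darkened tissue. SEN1, named for its induction in darkness and senescence, had the second largest difference, 4.39 in L. It gave 78, 7.69 and 189 CPM in CASP1::shy2-2/slr-1 at 2 h against 6.74, 0.66 and 2.87 CPM in the controls. In slr-1 it gave 79.6, 75.9 and 13.7 CPM untreated and 15.3, 17.7 and 23.3 CPM at 2 h. Replicates 1 and 3 at 2 h were high, replicate 2 was just above the highest of its controls, and replicate 3 was above all slr-1 controls. The reference table gives the symbol SEN1 to 2 loci, and the locus meant here is AT4G35770.

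AT3G15450, a protein of the aluminium-induced family with the YGL and LRDR motifs, was the most abundant member at 2 h. It gave 1091, 115 and 2428 CPM against 198, 47.3 and 127 CPM in its own controls. The untreated slr-1 libraries stood at 1878, 1776 and 591 CPM and the treated ones at 168, 269 and 399 CPM. The 2 h mean, 1211 ± 1162 CPM (SD, n = 3), was thus below the slr-1 control mean of 1415 ± 715 CPM. GAT1_2.1, a glutamine amidotransferase-like protein, ran alike, with 131, 14.4 and 323 CPM at 2 h, 31.8, 5.8 and 17.9 CPM in the controls, 301, 239 and 110 CPM in slr-1 controls and 21.6, 31.6 and 58.2 CPM in slr-1 at 2 h. BXL1, a beta-xylosidase of the cell wall, gave 64.4, 2.54 and 82.2 CPM at 2 h against 4.1, 0.681 and 4.52 CPM. AT1G80440, a kelch-repeat protein, gave 76.1, 9.94 and 142 CPM against 10.8, 5.03 and 6.35 CPM. In untreated slr-1 BXL1 gave 63.9, 73.4 and 11.7 CPM and AT1G80440 65.1, 62.7 and 18.7 CPM. In each of these genes the treated CASP1::shy2-2/slr-1 libraries 1 and 3 were high and library 2 lay within the range of its controls.

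The windows of AT1G80440, GAT1_2.1 and AT1G21400 are shown as the 3 members with the largest differences whose 250 bases hold TATCCA, a motif described in sugar-repressed rice amylase genes. TATCCA was added to the motifs after the members were known. Capitals mark TATCCA and the letters TGACG, bound by TGA factors, on either strand. The windows in TAIR10.1 (RefSeq) are chr1:30241202-30241451, plus strand, chr1:5181403-5181652, minus strand, and chr1:7492963-7493212, plus strand.
AT1G80440: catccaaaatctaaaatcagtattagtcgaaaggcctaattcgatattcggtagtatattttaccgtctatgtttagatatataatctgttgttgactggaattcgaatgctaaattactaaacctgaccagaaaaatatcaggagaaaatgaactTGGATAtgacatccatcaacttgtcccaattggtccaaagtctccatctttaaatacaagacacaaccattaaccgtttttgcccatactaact
GAT1_2.1: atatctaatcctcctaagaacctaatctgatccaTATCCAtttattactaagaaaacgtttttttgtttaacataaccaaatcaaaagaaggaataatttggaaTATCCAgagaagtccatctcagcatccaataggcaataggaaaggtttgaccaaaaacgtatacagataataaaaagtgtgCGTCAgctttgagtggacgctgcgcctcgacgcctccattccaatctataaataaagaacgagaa
AT1G21400: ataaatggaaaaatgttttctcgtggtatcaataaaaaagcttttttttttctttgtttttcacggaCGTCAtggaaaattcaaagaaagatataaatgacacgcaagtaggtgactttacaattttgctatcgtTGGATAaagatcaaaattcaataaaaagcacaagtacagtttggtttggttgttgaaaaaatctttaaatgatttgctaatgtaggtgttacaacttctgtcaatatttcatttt

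GAT1_2.1 had 2 TATCCA matches, starting 216 and 146 bases before the start, and TGACG 65 bases before it. AT1G80440 had TATCCA 94 bases before the start, and AT1G21400 had it 115 bases before, with TGACG 183 bases before. TATCCA was in 16 of the 84 windows (19.0%) and in 13.7% of all windows. It was in 15 of the 64 members lowest in replicate 2 (23.4%) and in 0 of the 18 highest. Both the motif and this split were chosen after the values were seen, so nothing is read from that contrast. TGACG was in 24 windows (28.6%), against 18.6% of all. Here too the letters are described and are not taken as sites.

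Enzymes of amino acid breakdown are among the members. BCAT-2 starts the breakdown of branched-chain amino acids, AT1G21400 and BCE2 are subunits of the dehydrogenase complex that follows, and IVD and MCCA carry on with leucine. IVD gave 289, 82 and 374 CPM at 2 h against 59.3, 51.6 and 58.1 CPM in the controls, and in slr-1 173, 179 and 61.2 CPM untreated and 157 ± 7.33 CPM (SD, n = 3) at 2 h. BCAT-2 gave 42.2, 4.73 and 52.1 CPM against 6.64, 2.62 and 3.94 CPM, and MCCA 215, 52.3 and 276 CPM against 57.2, 41.4 and 51 CPM. Untreated slr-1 gave 32.9, 33.6 and 6.21 CPM of BCAT-2 and 182, 205 and 71.8 CPM of MCCA. For IVD all treated libraries were above the controls, by least in replicate 2. For MCCA and BCAT-2 replicate 2 lay within the range of the controls. AT1G21400 and BCE2 differed by 2.59 and 2.35 in L, and by -0.18 and -0.35 in slr-1.

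ERD5, a proline dehydrogenase, gave 681, 255 and 1029 CPM at 2 h against 230, 150 and 157 CPM. Its slr-1 libraries gave 1108, 1061 and 635 CPM untreated and 351, 469 and 553 CPM at 2 h. ERD5 was still higher at 4 h in CASP1::shy2-2/slr-1, at 511, 756 and 883 CPM, and is 1 of the 2 members with their maximum there. AGT, an aminotransferase that acts on glyoxylate, differed by 2.57 in L and by 0.06 in slr-1, and the asparaginase ASPGB1 by 1.55 and -0.08.

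Other members act in sugar metabolism and transport. DIN10, a raffinose synthase-like protein named for dark induction, gave 917, 190 and 1916 CPM at 2 h against 452, 178 and 273 CPM, and in slr-1 1975, 1896 and 954 CPM untreated against 184, 313 and 441 CPM at 2 h. Replicate 2 lay within the controls. SIP2, of the same family, gave 499, 265 and 925 CPM against 224, 105 and 151 CPM. Untreated slr-1 gave 747, 753 and 442 CPM of SIP2, a mean of 647 CPM, above the 2 h mean of 563 CPM. TPS11, a trehalose phosphate synthase-like protein, gave 232, 68 and 440 CPM against 95.3, 45 and 95.4 CPM. Its reads were 8899, 9251 and 4413 in slr-1 controls and 8047, 2085 and 12372 in CASP1::shy2-2/slr-1 at 2 h. SWEET12, a sucrose exporter, was nearly confined to CASP1::shy2-2/slr-1, with 22.8, 2.45 and 30.9 CPM at 2 h and 3.59, 0.928 and 3.35 CPM in the controls, and at most 0.404 CPM in any slr-1 library.

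The listed energy starvation genes, 20 loci in all, hold 6 members: DIN10, BCAT-2, TPS11, MCCA, IVD and ERD5. The list was written with results of these data known, its members were chosen by these very values, and the rule used these libraries, so what follows is a description. Over the list the median difference at 2 h was 1.11 in CASP1::shy2-2/slr-1 and -0.40 in slr-1, beside -0.07 and -0.08 over all genes tested later. Of the list, 8 loci differed by at least 1.5 in CASP1::shy2-2/slr-1 and 1 in slr-1. DIN2 (3.37 and 1.82) and DIN9 (2.35 and 0.33) passed the first threshold and missed the set by their slr-1 value. ATL8 (1.27 and -2.17), TPS8 (1.11 and -1.41), AKINBETA1 (1.11 and -0.99) and TPS9 (1.07 and -0.98) had the same pattern at a smaller size, and ASN1 did not, at -0.40 and -0.46.

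**Figure D3:**
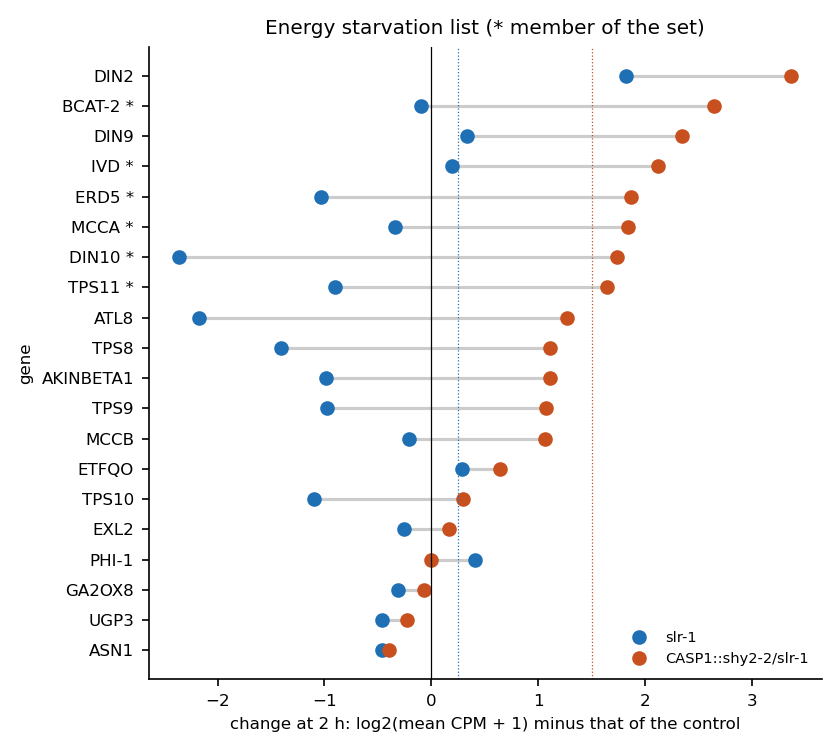
Difference between 2 h and control, as log2(mean CPM + 1), of the 20 listed energy starvation genes in slr-1 (blue) and CASP1::shy2-2/slr-1 (orange), with asterisks on the 6 members and dotted lines at the thresholds of the rule, 0.25 and 1.5. Most orange points lie to the right of the blue ones, and those of PHI-1 lie to the left.

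BT1 and BT2, scaffold proteins with BTB and TAZ domains that respond to sugar and nitrogen, are the members among 24 listed nitrate response loci. BT2 gave 150, 21.2 and 377 CPM at 2 h against 83.2, 32 and 65.6 CPM, with replicate 2 below all controls, and in slr-1 381, 347 and 197 CPM untreated and 57.2, 91.6 and 116 CPM at 2 h. BT1 gave 47.9, 12.5 and 132 CPM against 26.9, 11.9 and 16.1 CPM. CNI1, a ubiquitin ligase of the carbon and nitrogen balance, had all treated libraries above the controls, at 47.9, 27.3 and 72.3 CPM against 13.1, 15.4 and 15.6 CPM. Among the most abundant members, the kinase STY46 gave 377, 119 and 686 CPM against 157, 116 and 134 CPM. GDPD2, a phosphodiesterase of membrane lipid turnover, gave 299, 122 and 476 CPM against 77.4, 28.4 and 57.6 CPM. HIR2, a membrane protein of the hypersensitive response, gave 652, 532 and 825 CPM against 183, 258 and 166 CPM. AT2G33830, a dormancy and auxin associated protein, gave 690, 107 and 1020 CPM against 139, 101 and 142 CPM. Untreated slr-1 gave 333, 253 and 195 CPM of GDPD2 and 750, 761 and 205 CPM of AT2G33830. STY46 had 19190, 21804 and 10640 reads in slr-1 controls and 13067, 3659 and 19276 reads in CASP1::shy2-2/slr-1 at 2 h.

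Of the 28 gene lists examined, 23 hold no member. The 67 auxin response and turnover loci hold none, nor do those for suberin and Casparian strip, the cell cycle, hypoxia, heat shock or jasmonate. In all, 17 members are in a list and 67 in none. The auxin list had a median 2 h difference of 0.16 in CASP1::shy2-2/slr-1 and 0.56 in slr-1, and 2 and 15 of its loci differed by at least 1.5.

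The 64 members lowest in replicate 2 were grouped by that place, after the values were seen, and are described by their medians. In CASP1::shy2-2/slr-1 their median level was 40.7, 10.8 and 52 CPM at 2 h and 7.62, 5.7 and 6.54 CPM untreated. In the slr-1 controls it was 29.4, 29.6 and 14 CPM, with replicate 3 low, and at 2 h 13.6, 17.8 and 19.6 CPM. In CASP1::shy2-2/slr-1 it was 14.2, 22.7 and 21.7 CPM at 4 h and 8.65, 5.99 and 8.06 CPM at 8 h. Single members departed from the medians, as AT1G12010 and MYBC1, with means of 55.5 and 36.9 CPM at 16 h against 38.7 and 19.9 CPM at 2 h. A median of 61.8% of the 2 h difference in L was left at 4 h, -2.0% at 8 h, -0.7% at 16 h and -37.1% at 24 h. At 16 h replicate 3 of CASP1::shy2-2/slr-1 stood apart, at 17.7 CPM against 2.78 and 2.82 CPM, and it is the only library of its group with a code ending in n. Of all 84 members 78 were higher in it than in the mean of the other libraries, by a median of 1.44 on the log2 scale, and in slr-1 at 16 h the n library was higher in 74, by 0.61. At 4 h the n libraries were higher in 68 members in CASP1::shy2-2/slr-1, by a median of 0.63, and in 58 in slr-1, by 0.31. At 8 h they were lower, by medians of -0.19 and -0.38.

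**Figure D4:**
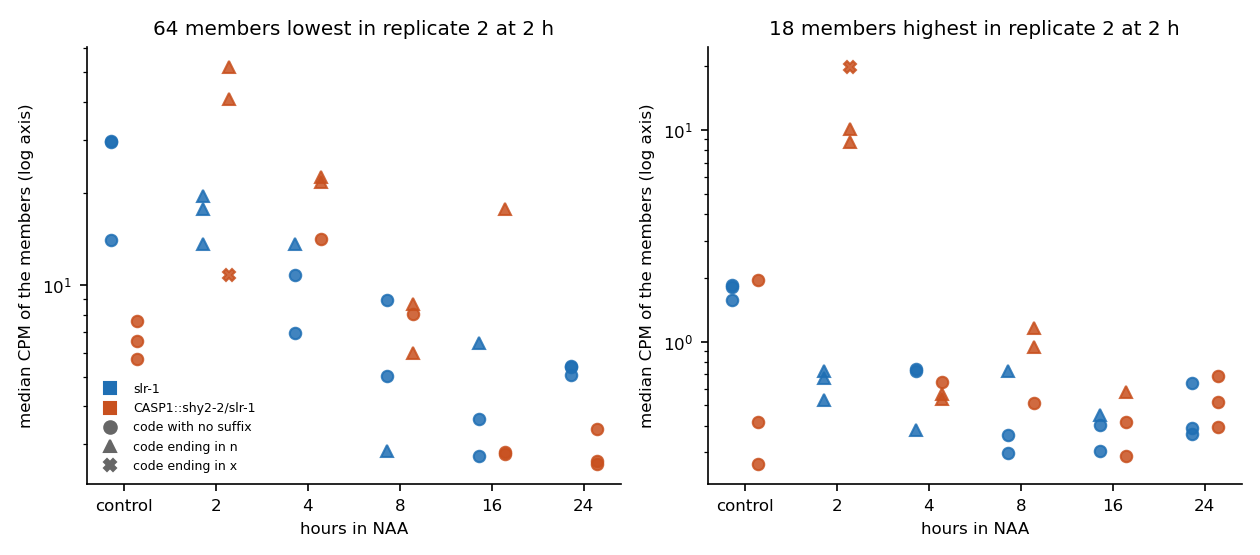
Median CPM (log axis) of the 64 members lowest (left) and the 18 highest (right) in the x library, in each of the 36 libraries against hours in NAA, with slr-1 in blue, CASP1::shy2-2/slr-1 in orange and the symbol for the suffix of the library code. On the left the x library stands at 10.8 CPM below 40.7 and 52 CPM, and on the right at 19.8 CPM above 10.1 and 8.75 CPM.

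The libraries from 4 h on, which the rule did not use, test whether the genotypes went on differing in these genes. At 4 h they did, in one direction. Of 83 members tested, 17 had the higher level in CASP1::shy2-2/slr-1 (20.5%, against 7.87% of the 20708 genes tested) and 0 were lower (9.07% of all), in edgeR's quasi-likelihood test with adjusted p under 0.05. At an unadjusted p under 0.05 the counts were 31 and 0, and in DESeq2 24 and 0. The shares of all genes beside these further counts are not given here, so nothing is read from them. The median log2 fold change was 1.00 over the members and -0.01 over all genes, and in 36 members the libraries of CASP1::shy2-2/slr-1 lay above those of slr-1 without overlap (17.8% of all genes). The count depends on single libraries, and the code suffix is unevenly spread, with 2 n libraries in CASP1::shy2-2/slr-1 and 1 in slr-1. With the suffix as a term of the fit 16 members were higher and 0 lower. Without slr-1 replicate 1 or 2 it was 4 or 6, and without CASP1::shy2-2/slr-1 replicate 2 or 3 it was 5 or 7.

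The strongest calls at 4 h were of genes with few reads in slr-1. SWEET12 gave 97, 497 and 192 reads (2.36, 12.3 and 4.92 CPM) in CASP1::shy2-2/slr-1 and 1, 2 and 2 reads in slr-1, a log2 fold change of 7.14 ± 1.03 (SE; edgeR adjusted p = 0.000137). AT2G05400, annotated as a relative of ubiquitin-specific proteases, gave 46, 400 and 93 reads against 3, 0 and 2 reads (6.60 ± 0.94, adjusted p = 0.000202). With so few reads in slr-1 these sizes depend on the prior count of the fit, and the separation of the libraries does not. AT4G08360, a KOW domain protein, gave 5.74, 15 and 11.4 CPM against 0.556, 0.832 and 1.4 CPM (3.52 ± 0.73, adjusted p = 0.00275). The 4 h groups do not overlap in these genes.

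Amino acid and sugar genes were among the 4 h calls. IVD gave 99, 179 and 184 CPM in CASP1::shy2-2/slr-1 and 48.8, 56.8 and 78.5 CPM in slr-1, a log2 fold change of 1.33 ± 0.42 (SE; edgeR adjusted p = 0.0364). MCCA gave 54.9, 114 and 129 CPM and 20.5, 27.7 and 49.2 CPM (1.61 ± 0.45, adjusted p = 0.0194). Both pairs of groups were apart, by little between the lowest and the highest library. TPS11 was higher by 1.72 ± 0.58 (adjusted p = 0.0467) and WRKY70 by 1.37 ± 0.46 (adjusted p = 0.0463). Of the 20 listed energy starvation genes, all tested, 5 were higher and 0 lower, with a median of 0.95. BCAT-2, ERD5 and DIN10 missed the threshold, at 0.81 ± 0.61, 0.95 ± 0.53 and 1.54 ± 0.86 (adjusted p = 0.357, 0.209 and 0.212). Of the 21 tested genes of the indolic glucosinolate and camalexin list, 0 were higher and 11 lower, with a median of -0.76, and of the 14 tested of the salicylate and immunity list 2 were higher and 1 lower. AT1G26410 was higher by 1.71 ± 0.47 (adjusted p = 0.0177), and CYP71A12 stood at 3.44, 3.49 and 2.63 CPM in slr-1, among the values given above for CASP1::shy2-2/slr-1.

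At 8 h, 7 members were higher (8.43%, against 6.79% of all genes) and 1 was lower (7.96%), a share near the background, with a median log2 fold change of 0.42. AT1G26380 had the smallest p. It gave 1.06, 1.13 and 3.4 CPM in CASP1::shy2-2/slr-1 and 0.595, 0.503 and 0.431 CPM in slr-1, a log2 fold change of 1.88 ± 0.43 (SE; edgeR adjusted p = 0.0064). CYP71A12 gave 10.7, 12.1 and 14.1 CPM against 4.37, 2.74 and 6.96 CPM (1.42 ± 0.36, adjusted p = 0.0126). AT4G08360 was higher again, by 3.11 ± 0.79 (adjusted p = 0.0122). The groups do not overlap in these genes. SCPL13, a serine carboxypeptidase-like protein, was the member called lower, at -1.88 ± 0.60 (adjusted p = 0.0408), on 7, 3 and 15 reads against 28, 58 and 6 reads in slr-1, which overlap. The count of 8 calls fell to 3 or 2 without slr-1 replicate 1 or 2, and to 5 without CASP1::shy2-2/slr-1 replicate 1 or 2.

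At 16 h, 5 members were higher (6.02%, against 4.08% of all genes, a share near the background) and 0 lower (4.7%) in edgeR. At an unadjusted p under 0.05 the counts were 19 and 0, and in DESeq2 8 and 0. For these further counts, too, the shares of all genes are not given here, and nothing is read from them. AT1G12010, annotated as a 2-oxoglutarate and iron dependent oxygenase, gave 45.9, 49.9 and 70.9 CPM in CASP1::shy2-2/slr-1 and 20.5, 21.5 and 31.8 CPM in slr-1 (1.20 ± 0.22, adjusted p = 0.00118), and is 1 of the 3 members with their maximum at 16 h. The groups were apart in it. AT5G62360, a pectin methylesterase inhibitor-like protein, gave 7.17, 7.23 and 21.6 CPM against 3.29, 2.55 and 6.42 CPM (1.57 ± 0.38, adjusted p = 0.0124). The n library of each genotype was the highest in both genes. Without CASP1::shy2-2/slr-1 replicate 3, 2 members were higher and 3 lower. Without slr-1 replicate 1 or 2, 1 was higher, and without slr-1 replicate 3 or CASP1::shy2-2/slr-1 replicate 1, 13 and 10 were.

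At 24 h, in the fit of the 24 libraries, the share of members called was below that of all genes. There 1 member was higher (1.20%, against 6.18% of all genes) and 2 were lower (2.41%, against 6.66%), with a median of -0.36. AT5G62360 gave 5.47, 4.9 and 7.09 CPM in CASP1::shy2-2/slr-1 and 1.14, 1.21 and 1.41 CPM in slr-1 (2.22 ± 0.42, SE; edgeR adjusted p = 0.0011). It was called above slr-1 at 16 and 24 h and was not called at 8 h. There it gave 634, 429 and 318 reads against 148, 267 and 225 reads in slr-1. Those libraries held 49, 32.7 and 40.8 M reads in genes against 35.3, 45.7 and 32.5 M. In the controls it was lower than in slr-1, at 1.53, 2.27 and 0.914 CPM against 9.79, 8.02 and 5.41 CPM. BT2 was lower, at 18.7, 16.2 and 31.9 CPM against 128, 121 and 123 CPM (-2.48 ± 0.68, adjusted p = 0.0198). The uncharacterised AT3G45730 was lower too, at 1.45, 1.53 and 2.51 CPM against 8.93, 7.74 and 4.88 CPM (-1.97 ± 0.63, adjusted p = 0.046). In 38 members all CASP1::shy2-2/slr-1 libraries lay below all slr-1 libraries (22.9% of all genes). When the 2 groups of this time were fitted alone, 8 were higher and 32 lower. The share of all genes called in that fit is not given here, so nothing is read from these counts. With 1 library left out the count of 3 calls went down to 1 or 2: it was 1 without CASP1::shy2-2/slr-1 replicate 1 or 2, and 2 without any of the other libraries, AT3G45730 losing its call each time.

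**Figure D5:**
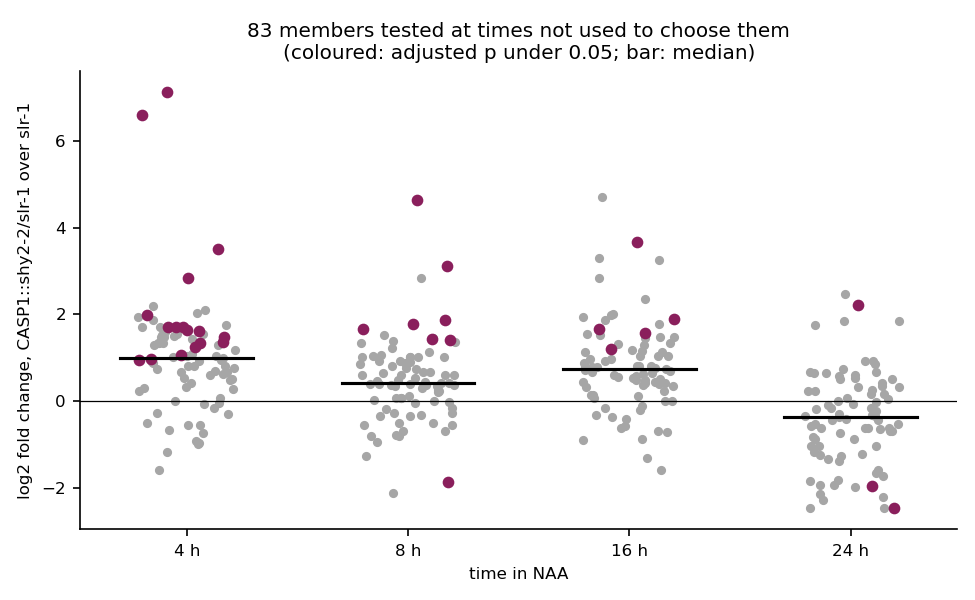
Log2 fold change of CASP1::shy2-2/slr-1 over slr-1 for the 83 members tested (points) at 4, 8, 16 and 24 h of NAA, edgeR, with coloured points for an adjusted p under 0.05 and bars at the median. The medians are 1.00, 0.42, 0.75 and -0.36, and the coloured points number 17, 8, 5 and 3.

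From 4 to 24 h most members fell in CASP1::shy2-2/slr-1. In edgeR 59 of 83 were lower at 24 h (71.1%, against 27.6% of all genes) and 9 higher (10.8%, against 27.2%), with a median log2 fold change of -2.29 beside 0.01 over all genes. In slr-1, 20 were lower (24.1%, against 21%) and 7 higher (8.43%, against 20.2%), with a median of -0.77. Scaling by total reads in place of TMM would move the median of all genes to 0.108 and 0.125 in these comparisons. The comparisons at 4 h and over time share the 4 h libraries. No 24 h library has a code ending in n, and at 4 h 2 in CASP1::shy2-2/slr-1 and 1 in slr-1 do. The suffix is thus partly mixed with the change over time and with its difference between the genotypes. In slr-1 the count of 20 lower members was 18, 13 and 9 without 4 h replicate 1, 2 and 3, and 10, 11 and 11 without 24 h replicate 1, 2 and 3.

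CNI1 fell in CASP1::shy2-2/slr-1 from 19.6, 34.3 and 28.9 CPM at 4 h to 6.13, 5.99 and 5.96 CPM at 24 h (-2.29 ± 0.29, SE; edgeR adjusted p = 4.76e-06), and in slr-1 from 13.5, 14.7 and 14.4 to 4.74, 4.65 and 4.98 CPM (-1.67 ± 0.29, adjusted p = 1.53e-04). SEN1 fell from 13.3, 39 and 46.4 to 0.474, 0.307 and 1.09 CPM (-5.83 ± 1.43, adjusted p = 0.00201). AT3G15450 fell from 340, 878 and 1139 to 14.7, 16.7 and 43 CPM (-5.08 ± 1.39, adjusted p = 0.00452). All libraries at 24 h were below all at 4 h in these genes. Of the 20 listed energy starvation genes 14 fell and 1 was higher in CASP1::shy2-2/slr-1, and in slr-1 1 fell and 3 were higher.

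CDEF1, a cutinase of the GDSL family, went the other way. It gave 5.6, 2.29 and 4.2 CPM at 4 h and 78.7, 74.8 and 56.8 CPM at 24 h in CASP1::shy2-2/slr-1 (4.02 ± 0.41, SE; edgeR adjusted p = 3.63e-07), and 7.66, 6.74 and 3.36 against 43.6, 49.8 and 46.6 CPM in slr-1 (2.88 ± 0.39, adjusted p = 7.47e-06). The rise at 24 h was thus shared by the genotypes, and the level exceeded the 2 h values of 9.14, 32 and 12.1 CPM. CDEF1 and AT5G38910, a cupin, are the 2 members whose L in slr-1 later exceeded its control by at least 1.5. CYP71A12 also rose from 4 to 24 h in both genotypes, to 15, 24.4 and 22.3 CPM in CASP1::shy2-2/slr-1 (2.28 ± 0.37, adjusted p = 5.21e-05) and 13.5, 19.7 and 13.3 CPM in slr-1 (2.18 ± 0.37, adjusted p = 1.11e-04). SCPL13 fell in slr-1 from 188, 125 and 52 reads to 0, 1 and 1 reads, and no size is given for so few.

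The change from 4 to 24 h differed between the genotypes for 16 members in edgeR's interaction contrast. In 15 it was lower in CASP1::shy2-2/slr-1 (18.1%, against 8.33% of all genes) and in 1 higher (1.20%, against 10.5%), with a median of -1.50. SIS, annotated as a relative of the ubiquitin ligase RLIM, fell from 15.6 ± 4.48 CPM (SD, n = 3) to 1.47, 1.51 and 1.56 CPM in CASP1::shy2-2/slr-1 and went from 2.93, 4.24 and 4.74 to 2.42, 2.4 and 2.61 CPM in slr-1, a difference of -2.68 ± 0.74 (SE; adjusted p = 0.0184). IVD, MCCA and BCAT-2 are among the 15, at -1.95 ± 0.59, -1.97 ± 0.62 and -2.63 ± 0.90 (adjusted p = 0.0287, 0.0345 and 0.0484), and lost the call in 8, 12 and 14 of the 21 alternatives run for each. The count of 16 fell to 3 or 4 without slr-1 4 h replicate 1 or 2 and to 6 without any 1 of the slr-1 24 h libraries. It was 5 or 3 without CASP1::shy2-2/slr-1 4 h replicate 2 or 3, 5, 2 or 7 without its 24 h replicate 1, 2 or 3, and 24 without slr-1 4 h replicate 3.

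Loci chosen by the mirrored rule, with the 2 h difference in slr-1 and not in CASP1::shy2-2/slr-1, numbered 56, and 91 had a difference of at least 1.5 in both. At 4 h the mirrored loci had a median log2 fold change of -1.18 between the genotypes, with 0 higher and 40 lower, and the shared loci one of -0.28, beside 1.00 in the 84 members. The difference between sets follows in part from their choice and was not tested.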

How the data were processed

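RNA was sequenced from 36 root libraries, 3 in each of 12 groups of genotype and time in NAA. The deposited files hold 1 read count per gene and library. The submitters' processing notes name TAIR10 with HTSeq 0.6.1, STAR 2.4.0a and cutadapt 1.3, and the settings, including the use of strand, are not given in the sources used here. Reads in the 5 categories that name no gene, 5.28 to 11.17% per library, were left out. Symbols and sequences came from RefSeq's TAIR10.1, which holds all 84 members.

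CPM were counts over the total in genes, and the rule used log2(mean CPM + 1). Tests were run in R 4.3.3 with edgeR 4.0.16 on the deposited counts of the 24 libraries at 4 to 24 h: TMM scaling (factors 0.952 to 1.045), filterByExpr (20708 genes tested), and the robust quasi-likelihood F-test with a mean for every group, which leaves 16 residual degrees of freedom. Benjamini-Hochberg adjustment ran over all genes tested within each of 7 comparisons, called under 0.05. Folds are TMM-scaled and printed CPM are not. The SE printed with a fold is the absolute log2 fold change over the square root of the F of its test. It was worked back from the test and is approximate, above all where a group has few reads.

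Members and gene lists were chosen with earlier results of these data known, so they are not independent evidence. Named genes were the 12 largest 2 h differences with a mean of at least 5 CPM, the 8 most abundant, up to 3 calls by p in each direction and comparison without overlap, up to 4 members per list, neighbours, and 3 loci at each edge. Others were chosen after their values were seen: AT1G26410, AT1G21400, BCE2, AGT, ASPGB1, TPS11, WRKY70, AT1G30730, AT1G26420, PP2-A13 and the remaining list genes. In 8 listed symbols the table named another gene, and they were dropped. The labels do not say whether the 3 libraries of a group came from separate plantings, so p-values measure the spread between these libraries. Nor do they say whether replicate numbers pair samples. The genotypes at 16 h were the only 1 of 6 comparisons in which all numbered pairs correlated above 0.1 (0.529, 0.22 and 0.664). Replicate 3 has a code ending in n in both genotypes there, and pairing was not tested apart from the suffix. Alternatives were DESeq2 1.42.0, other scalings, filters and thresholds, a replicate block, the code suffix as a term, only the groups compared, all 36 libraries, other pseudocounts and summaries in the rule, and each library left out. The steps were tested on simulated counts.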

Additional observations from a re-analysis of the deposited data

Results flagged for a closer look

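The change from 4 to 24 h differed between the genotypes for members of the set in edgeR's interaction test, lower in CASP1::shy2-2/slr-1 for 15 and higher for 1. AT5G62360, the pectin methylesterase inhibitor-like gene, was the one higher, at 2.52 ± 0.59 on the log2 scale (SE, adjusted p = 0.00686): it went from 2.46, 2 and 1.97 to 5.47, 4.9 and 7.09 CPM in CASP1::shy2-2/slr-1 and from 2.12, 2.76 and 3.06 to 1.14, 1.21 and 1.41 CPM in slr-1, and its adjusted p stayed under 0.05 in all 21 alternatives run for it. The uncharacterised AT4G26288 was at -4.50 ± 1.24 (adjusted p = 0.0179), with 5.23, 11.1 and 8.4 CPM at 4 h and 0.105, 0.0943 and 0.238 CPM at 24 h in CASP1::shy2-2/slr-1, and of 20 alternatives its adjusted p passed 0.05 without CASP1::shy2-2/slr-1 24 h replicate 2, while the stricter limit of 0.01 leaves only AT5G62360 of the 16. SIS was at -2.68 ± 0.74 (adjusted p = 0.0184).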

How the results depend on the processing

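No result for a named gene reversed under any alternative run: of 1095 values for 72 results, 948 kept their side of the threshold and 147 lost the call. The counts of called members moved more, and the cause was not tested. Shares of all genes called under the alternatives are not given here. At 4 h, where 17 were called, 5 were at an adjusted p under 0.01, 9 with no filter, 10 at a mean of at least 5 CPM, 27 with only the groups compared, and 4 to 22 with 1 library left out. At 8 h (8 calls) the counts were 1, 1 at 5 CPM, 5 with all 36 libraries, and 2 to 11. At 16 h (5) they were 1, 2 at 5 CPM, 1 with only the groups compared, 8 in DESeq2, and 1 to 13. At 24 h (3) they were 1, 5 with the replicate block, 7 with the suffix as a term, 40 with only the groups compared, 8 in DESeq2, and 1 to 2. From 4 to 24 h in slr-1 (27) they were 16, 14 at 5 CPM, and 17 to 25, and in CASP1::shy2-2/slr-1 (68) 39 at 5 CPM, and 62 to 66. For the genotype difference in that change (16) they were 1, 10 with no filter, 9 at 5 CPM, 28 with the replicate block, 45 with only the groups compared, 28 in DESeq2, and 2 to 24. Fits of only the groups compared and with a library left out rest on fewer samples. The rule took 180 loci at a threshold of 1 and 35 at 2, and 46 to 117 with 1 library left out. The replicate block left 4 calls at 16 h, where all numbered pairs correlated above 0.1. Elsewhere the numbered pairs correlated at -0.437 to 0.375.
Whether depth limited the 16 members with a 2 h mean under 5 CPM was not tested. The filter left out 11970 loci as too low to test, those without a read included. CYP71A13 was the only member among them.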
